A study of Mus musculus with 9 samples.

Results

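Ovaries collected at postnatal day 50 were compared with ovaries collected at postnatal day 8, across all genes, in 6 of the 9 RNA-seq libraries of a mouse series. Each age has 3 libraries. The members of the comparison are the genes that passed a filter on low counts, 17747 of the 55487 rows of the deposited tables. Both groups come from C57BL/6 mice that carry a knock-in of the PIK3CA* gene specific to oocytes, so the genotype is shared, and no ovary without it was analysed here. PIK3CA is the gene of a catalytic subunit of phosphoinositide 3-kinase. The labels do not name the driver that restricts the knock-in to oocytes. The series describes its tissue as tumor samples. Changes of normal maturation therefore cannot be told apart here from changes that the genotype or a tumor brings with age. The day 65 libraries, of the same genotype, entered the model for the estimate of the spread. The labels do not say if libraries of the same age are from different animals, and a p-value here reflects how far libraries spread, which may be technical. Ovary RNA was sequenced in bulk, and every level is a share of its library. A lower level can come from fewer cells of a type, from less RNA per cell or from more RNA of other cells. These cannot be told apart here.

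Oocytes enter meiosis before birth, pass through pairing and recombination of their chromosomes and then arrest in prophase, each enclosed by a few flat granulosa cells in a primordial follicle. When a follicle is recruited, the oocyte grows, secretes its zona pellucida and stores maternal RNA and protein, while granulosa cells divide and later respond to follicle-stimulating hormone. Theca cells gather outside the follicle and make androgen, which granulosa cells convert to estradiol. A young ovary is rich in small follicles, and antral follicles and steroid synthesis come with age. This is the course of a normal ovary, and whether ovaries of this genotype follow it was not tested.

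Total counts ran from 14116872 to 18868772 per library over the 6 libraries, and 23637 to 25979 genes had a count above 0. Spearman correlations across genes were 0.962 to 0.991 within day 8, 0.991 to 0.992 within day 50 and 0.890 to 0.909 between the ages. Markers of the labelled tissue were present. The 10 granulosa markers summed to 1280 to 1450 CPM (counts scaled to a common library size) at day 8 and 5550 to 6490 CPM at day 50. The 10 oocyte markers summed to 2890 to 3300 CPM at day 8 and 95.4 to 138 CPM at day 50. No marker of either list had 0 counts over all libraries of an age. Among these 6 libraries day 8 replicate 1 stood apart. Ribosomal protein genes took 10.9% of its counts, against 2.91% to 5.52% in the other 5 libraries, and mitochondrially encoded genes took 4.53% against 2.03% to 3.29%. The day 65 libraries, which share the model, had 9.27% to 12.2% and 4.59% to 5.13%. The biological coefficient of variation, edgeR's estimate of the spread beyond counting error, was 27.6% at day 8, 12.7% at day 8 without replicate 1 and 12.0% at day 50. Relative to the mean of replicates 2 and 3, the median gene of the follicle-stimulating hormone and estradiol list was higher in replicate 1 by a log2 ratio of 1.03, that of the theca and steroid list by 0.49 and that of the clustered oocyte gene families by 1.38. The median granulosa transcription factor was lower by a log2 ratio of -0.61 and the median surface epithelium marker by -0.67, while the median of all tested genes stood at -0.03. Values without replicate 1 are given beside the named genes and list medians that they move by over 1.5 times. The clone-named gene CT010467.1 took 3.82% to 7.91% of counts at day 8 and 0.884% to 2.39% at day 50, and its part in the results was not tested.

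**Figure D1:**
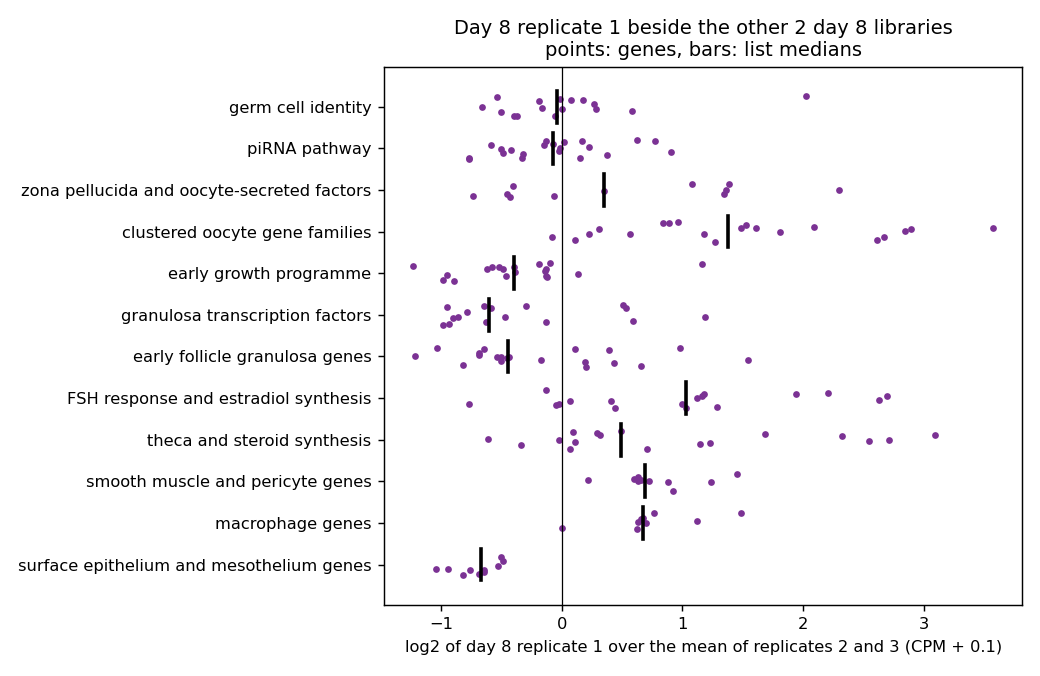
Log2 ratio of day 8 replicate 1 to the mean of day 8 replicates 2 and 3 (CPM with 0.1 added) for tested genes of 12 lists; points are genes and bars are list medians. Hormone-response, theca and clustered oocyte genes lie mostly to the right of 0, with list medians of 1.03, 0.49 and 1.38, and surface epithelium markers all lie to the left.

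Of the 17747 genes, 7249 (40.8%) were called different between the ages, which means an adjusted p (Benjamini-Hochberg) under 0.05 in the quasi-likelihood test of edgeR. Of all genes tested, 3455 (19.5%) were higher at day 50 and 3794 (21.4%) lower. The larger changes were mostly falls. A called change of at least 4-fold was seen upward in 694 genes (3.91%) and downward in 1413 (7.96%), and a called change of at least 32-fold upward in 51 and downward in 300. In 10241 genes (57.7%) the libraries of the ages did not overlap. The median log2 fold change over all tested genes was -0.04, with quartiles of -0.67 and 0.46.

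Genes were grouped by role into lists. The 10 germ line lists held 183 genes, of which 176 were found in the tables and 157 tested. Among those tested, 0 were higher and 128 were lower at day 50, where 21.4% of all tested genes were lower. Of the 128, 109 fell by at least 4-fold (7.96% of all tested genes did) and 45 by at least 32-fold, and the median log2 fold change of the 157 was -3.29 beside -0.04 for all genes. Of the 157 tested, 52 reached the level of the filter (0.617 CPM) in every day 8 library and not in every day 50 library, and a gene kept in this way could hardly have come out otherwise, so the germ line counts and medians describe the tested members and carry no further weight. The 19 germ line genes that were not tested each had a mean under 1 CPM at both ages. The 10 follicle lists held 156 genes, all found, with 150 tested. Of these 65 were higher, where 19.5% of all tested genes were, and 19 lower, with a median log2 fold change of 0.55.

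**Figure D2:**
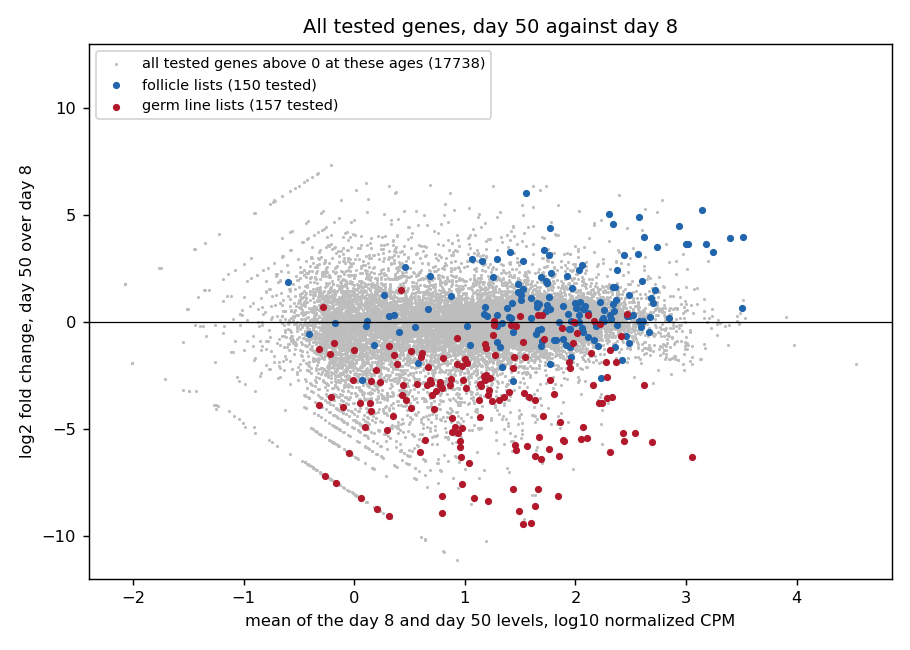
Log2 fold change of day 50 over day 8 against the mean level of both ages (log10 CPM), for the 17738 tested genes with a count at either age; red points are the 157 tested germ line genes and blue points the 150 tested follicle genes. Red points lie mostly below 0, with a median of -3.29, and the blue points that lie farthest above 0 include Inhba at 5.22.

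**Figure D3:**
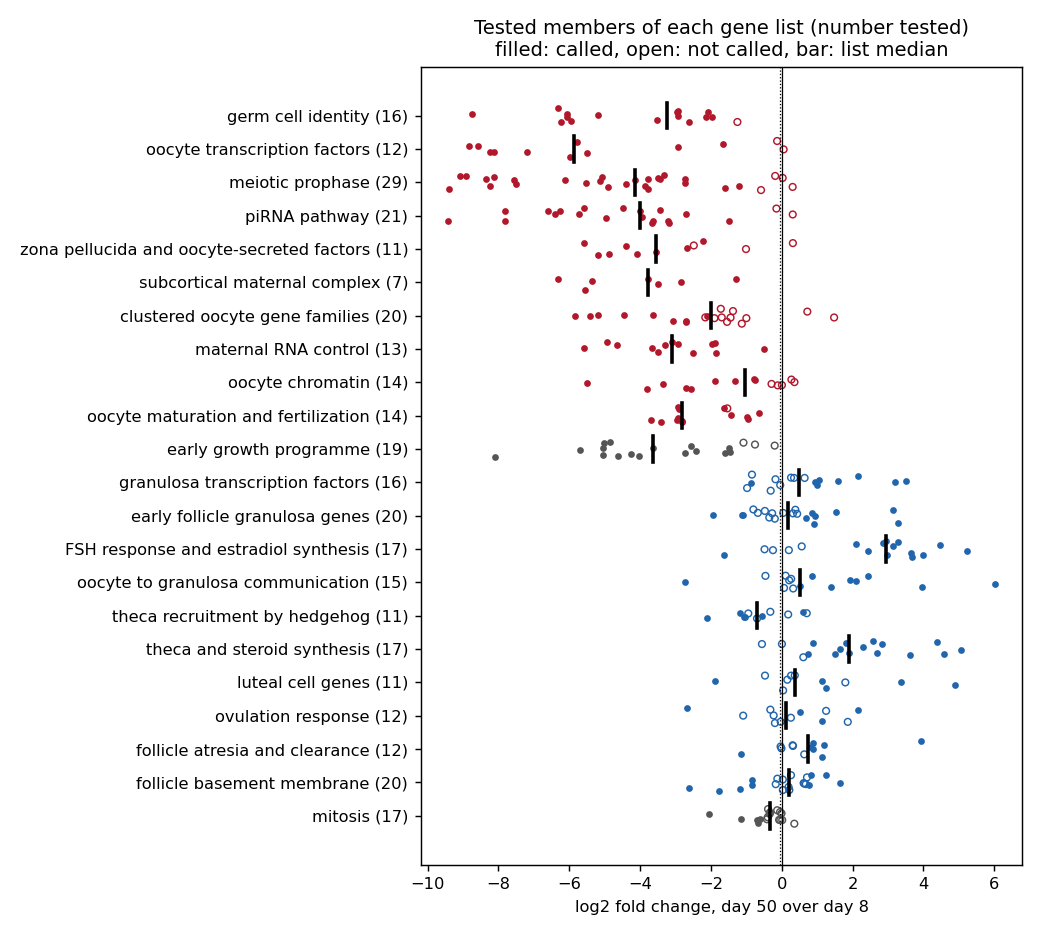
Log2 fold change of day 50 over day 8 for the tested members of each list (number tested in brackets); filled points passed the test, open points did not, bars are list medians and the dotted line is the median of all tested genes. Oocyte transcription factors have the lowest median of the 22 lists, -5.87, and the follicle-stimulating hormone and estradiol list the highest, 2.94.

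The germ cell identity list fell almost whole, with 15 of its 16 tested members lower (median log2 fold change -3.24). The level of the filter was reached only at day 8 by 4 of the 16, so that little else could come out for them. All 11 that reached it at both ages were lower (median log2 fold change -2.94). Ddx4, an RNA helicase of germ cells (chromosome 13, 112598333 to 112652310), measured 76.8, 78.2 and 97.5 CPM at day 8 and 0.858, 1.17 and 1.27 CPM at day 50 (log2 fold change -6.24, SE 0.21, edgeR adjusted p = 2.53e-07). Every day 50 library lay far below every day 8 library. Elavl2, a neuronal-type RNA-binding protein that oocytes also use, fell from 114 ± 16.3 to 1.84 ± 0.461 CPM (mean ± SD, n = 3 libraries here and below; log2 fold change -5.95, edgeR adjusted p = 2.04e-06), and Dazl, a germ cell regulator of translation, from 41.8 ± 3.81 to 3.66 ± 1.25 CPM (log2 fold change -3.51, edgeR adjusted p = 6e-06). Dppa3, a maternal protein that protects methylation in the zygote, measured 522, 304 and 393 CPM at day 8 and 6.29, 5.13 and 6.73 CPM at day 50 (log2 fold change -6.07, SE 0.77, edgeR adjusted p = 2.12e-04). Its 3 day 8 libraries were all above 300 CPM and its 3 day 50 libraries all below 10 CPM. The member that did not pass was Nanos3, with 0.687 ± 0.712 and 0.275 ± 0.196 CPM at the respective ages (edgeR adjusted p = 0.273). Day 8 replicate 1 carried most of its day 8 level, and without it the log2 fold change went from -1.25 to -0.07.

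Of the transcription factors that run early oocyte growth, 10 of 12 tested were lower (median log2 fold change -5.87). Of the 12, 5 reached the level of the filter only at day 8, so that little else could come out for them. Of the 7 that reached it at both ages, 5 were lower and 0 higher (median log2 fold change -2.94). Nobox, a homeodomain factor needed for the step out of the primordial stage (chromosome 6, 43303674 to 43309554), measured 114, 164 and 175 CPM at day 8 and 3.26, 2.29 and 4.48 CPM at day 50 (log2 fold change -5.49, SE 0.52, edgeR adjusted p = 3.5e-05). Lhx8, a LIM homeodomain factor of the same circuit, measured 42.6, 61.98 and 67.96 CPM at day 8 and 0.915, 0.725 and 1.07 CPM at day 50 (log2 fold change -5.98, SE 0.48, edgeR adjusted p = 1.24e-05). The ages did not overlap for either factor, and the day 50 libraries agreed within a few CPM. Pou5f1, the germ cell and stem cell factor OCT4, fell from 71.1 ± 9.68 to 1.300 ± 0.361 CPM (log2 fold change -5.77, edgeR adjusted p = 8.86e-06), with 14.1% of its exon bases overlapped by Gm19553. Sohlh2, a helix-loop-helix partner of Sohlh1, had 2 counts over the day 50 libraries, and its day 8 to day 50 ratio was 343 (exact binomial 95% interval 94.6 to 2840.4). Tbpl2, an oocyte paralog of the TATA-binding protein, fell from 24.03 ± 10.5 to 0.0721 ± 0.0628 CPM (log2 fold change -8.23, edgeR adjusted p = 2.48e-05). Outside this fall stood Foxo3, which holds primordial follicles in reserve and is restrained by phosphoinositide 3-kinase signalling. It measured 112, 173 and 147 CPM at day 8 and 139, 149 and 162 CPM at day 50 (log2 fold change 0.06, SE 0.20, edgeR adjusted p = 0.851). Taf4b, a general factor subunit with a role in oocyte survival, measured 19.15 ± 1.98 and 17.5 ± 2.602 CPM (edgeR adjusted p = 0.554). The ages overlapped for both genes. Foxo3 and Taf4b are expressed in somatic cells as well, and the part of those cells in their levels was not tested.

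Meiotic prophase genes were lower in 25 of 29 tested members (median log2 fold change -4.15), and 10 of the 39 members found were too low to test. Without day 50 replicate 1 the median was -4.75. Of the 29, 22 reached the level of the filter only at day 8, so that little else could come out for them. Of the 7 that reached it at both ages, 3 were lower and 0 higher (median log2 fold change -0.58). Syce2, a central element of the synaptonemal complex, measured 76.2, 50.5 and 61.6 CPM at day 8 and 6.23, 6.35 and 6.06 CPM at day 50 (log2 fold change -3.33, SE 0.18, edgeR adjusted p = 1.99e-06). It stayed at a measurable level, close to 6 CPM, in every day 50 library, far below day 8. Tex11, which acts in crossover formation, kept 1 count over the 3 day 50 libraries, and its day 8 to day 50 ratio was 681 (exact binomial 95% interval 122 to 26931). Hsf2bp, a recombination factor, fell from 14.9 ± 2.41 to 0.418 ± 0.03496 CPM (log2 fold change -5.13, edgeR adjusted p = 3.58e-05), and Stag3, a cohesin subunit that works with the meiotic subunit Smc1b, from 4.96 ± 0.395 to 0.456 ± 0.04698 CPM (log2 fold change -3.42, edgeR adjusted p = 6.32e-04). Among the 4 tested members that did not pass were Ythdc2 (log2 fold change -0.58), Mlh3 (-0.18) and Rec8 (0.31), with edgeR adjusted p of 0.0648, 0.4200 and 0.488. Mlh3 also serves mismatch repair in dividing cells, and the part of those cells in its level was not tested. Rec8, the meiotic kleisin, measured 22.8, 52.6 and 46.4 CPM at day 8 and 49.7, 55.2 and 46.3 CPM at day 50, with day 8 replicate 1 the lowest and the other day 8 libraries within the day 50 range.

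The piRNA pathway, which silences transposons in germ cells, had 19 of 21 tested members lower (median log2 fold change -4.0, or -4.76 without day 50 replicate 3). Of the 21, 12 reached the level of the filter only at day 8, so that little else could come out for them. Of the 9 that reached it at both ages, 7 were lower and 0 higher (median log2 fold change -3.20). Piwil2, an Argonaute-family protein that binds piRNAs, measured 74.7, 100.2 and 112 CPM at day 8 and 1.43, 0.836 and 1.12 CPM at day 50 (log2 fold change -6.40, SE 0.39, edgeR adjusted p = 2.71e-06), and Tdrd1, a Tudor scaffold of the germ granule, measured 110.0, 155 and 154 CPM at day 8 and 1.89, 1.003 and 2.55 CPM at day 50 (log2 fold change -6.25, SE 0.45, edgeR adjusted p = 6.91e-06). No library of one age reached the range of the other for these genes. Gtsf1, a small zinc-finger partner of Piwi proteins, fell from 56.03 ± 3.75 to 1.05 ± 0.166 CPM (log2 fold change -5.73, edgeR adjusted p = 7.65e-06), and Tdrkh, a mitochondrial Tudor protein, from 24.6 ± 3.46 to 1.96 ± 0.437 CPM (log2 fold change -3.64, edgeR adjusted p = 3.35e-06), with 36.7% of its exon bases overlapped by Oaz3. Tdrd5 and Tdrd7, Tudor proteins of the same granule, did not pass. Tdrd5 stood at 115 ± 7.604 and 143 ± 27.1 CPM (edgeR adjusted p = 0.133) and Tdrd7 at 27.6 ± 3.995 and 24.9 ± 0.737 CPM (edgeR adjusted p = 0.476).

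The promoters of 3 genes that fell are shown, from the germ cell identity, piRNA pathway and zona pellucida lists. Those of Zp1, Zp2 and Gdf9 were to be shown as well, but the promoter reference has no entry for them. Each sequence is the RefSeq (GRCm38.p6) stretch from 250 bases before to 50 bases after the annotated start, 5′ to 3′ on the gene's strand. Capitals mark E-boxes, the letters CANNTG, to which helix-loop-helix factors such as Figla, Sohlh1 and Sohlh2 can bind. The Ddx4 promoter is at chr13:112652261-112652560 (minus strand), that of Mael at chr1:166238695-166238994 (minus strand) and that of Zp3 at chr5:135979855-135980154 (plus strand).
Ddx4: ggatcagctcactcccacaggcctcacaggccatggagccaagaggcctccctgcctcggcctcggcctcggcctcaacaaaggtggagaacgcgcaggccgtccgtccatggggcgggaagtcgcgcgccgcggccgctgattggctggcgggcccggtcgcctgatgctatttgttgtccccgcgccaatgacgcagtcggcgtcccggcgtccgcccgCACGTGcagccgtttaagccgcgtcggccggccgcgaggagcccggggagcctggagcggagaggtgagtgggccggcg
Mael: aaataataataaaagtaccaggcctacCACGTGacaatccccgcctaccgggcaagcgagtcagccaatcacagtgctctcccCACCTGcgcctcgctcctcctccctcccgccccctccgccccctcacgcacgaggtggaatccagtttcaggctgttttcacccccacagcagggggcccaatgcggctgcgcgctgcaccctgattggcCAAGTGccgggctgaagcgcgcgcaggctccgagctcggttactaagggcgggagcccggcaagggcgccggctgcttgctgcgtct
Zp3: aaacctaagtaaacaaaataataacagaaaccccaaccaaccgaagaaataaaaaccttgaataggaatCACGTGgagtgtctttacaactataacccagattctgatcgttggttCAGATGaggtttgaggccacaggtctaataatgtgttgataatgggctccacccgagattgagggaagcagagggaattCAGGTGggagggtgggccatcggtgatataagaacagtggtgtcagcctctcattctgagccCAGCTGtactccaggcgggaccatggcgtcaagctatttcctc
The form CACGTG stands once in each, beginning 29 bases before the start in Ddx4, 223 before it in Mael and 181 before it in Zp3. Both strands were searched, and every CACGTG is also a CANNTG. Over the 32851 promoters of the table, 7.15% hold CACGTG and 72.3% hold CANNTG. Among 183 promoters of the 142 germ line genes with an entry, 17.5% hold CACGTG and 83.1% hold CANNTG, and among 139 promoters of 117 follicle genes 7.19% and 62.6% do. The homeodomain letters TAATTG stand in none of these 3 windows, in 7.10% of germ line promoters and in 8.00% of all promoters. These are matches of letters and do not show binding.

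**Figure D4:**
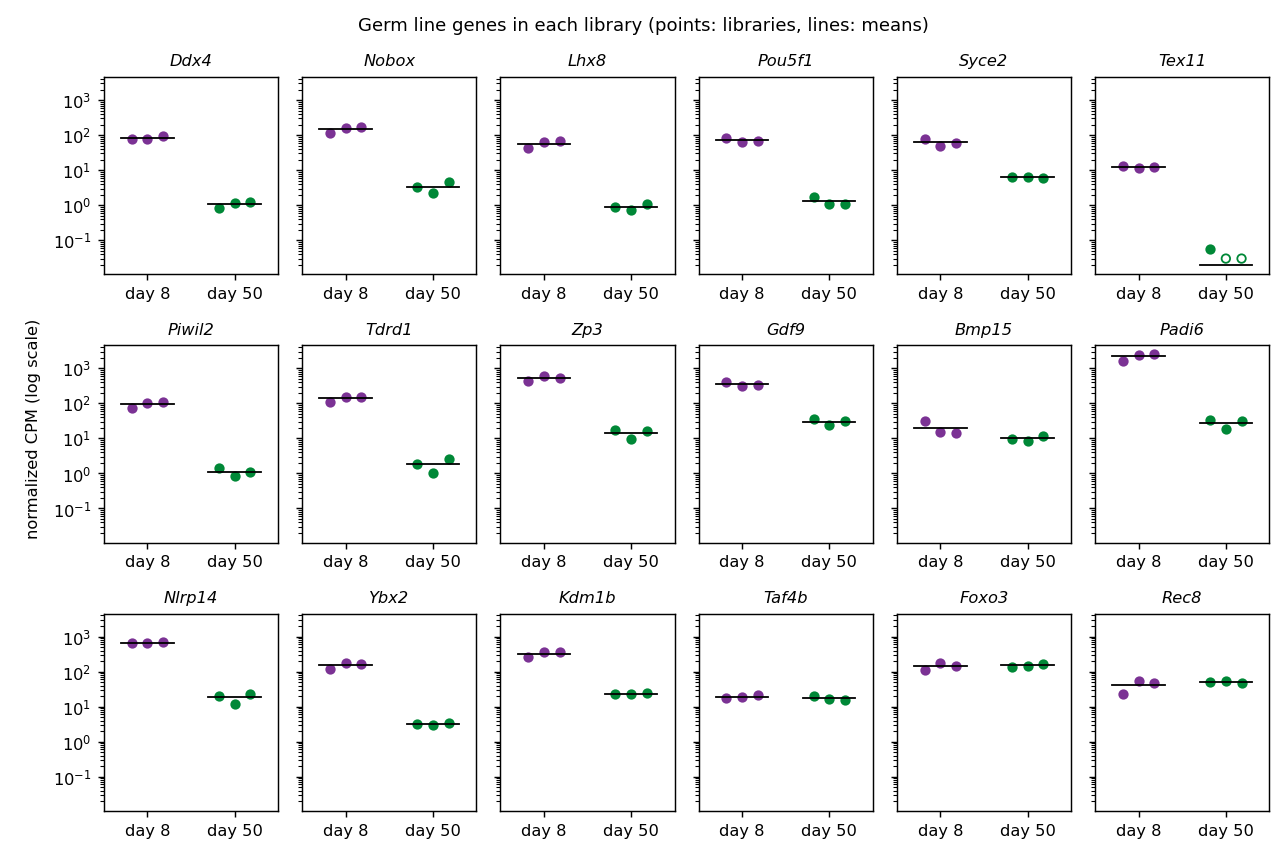
Normalized CPM of 18 germ line genes in each day 8 and day 50 library on a log axis; points are libraries, lines are means and open circles are libraries with 0 counts, drawn at 0.03. Ddx4, Nobox and Padi6 separate the ages by more than 1 step of the axis, a factor of 10, while Bmp15, Taf4b, Foxo3 and Rec8 did not pass the test.

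Among zona pellucida and secreted oocyte factors 8 of 11 tested members were lower and 0 higher, or 1 higher without day 8 replicate 2 (median log2 fold change -3.55). The level of the filter was reached only at day 8 by 2 of the 11, so that little else could come out for them. It was reached at both ages by 9, of which 6 were lower and 0 higher. Zp3, a zona glycoprotein and sperm receptor, measured 433, 603 and 544 CPM at day 8 and 17.3, 9.92 and 16.4 CPM at day 50 (log2 fold change -5.18, SE 0.85, edgeR adjusted p = 9.75e-04). Zp2 measured 783, 1075 and 1035 CPM at day 8 and 22.8, 13.9 and 23.6 CPM at day 50 (log2 fold change -5.58, SE 0.93, edgeR adjusted p = 0.00103), and Zp1, which cross-links the zona filaments, measured 183, 272 and 228 CPM at day 8 and 8.52, 5.35 and 9.28 CPM at day 50 (log2 fold change -4.88, SE 0.62, edgeR adjusted p = 2.11e-04). In all 3 genes day 50 replicate 2 was the lowest library. Gdf9 and Bmp15 are partner growth factors of the same family that oocytes send to granulosa cells, and they differed in size of change. Gdf9 had a log2 fold change of -3.55 (edgeR adjusted p = 1.99e-06), whereas Bmp15 measured 31.3, 15.6 and 13.8 CPM at day 8 and 9.78, 8.304 and 12.03 CPM at day 50 (log2 fold change -1.01, SE 0.82, edgeR adjusted p = 0.355). Bmp15 was highest in day 8 replicate 1, and without that library its log2 fold change was -0.55 (edgeR adjusted p = 0.693). Bmp15 passed the test when only the 6 libraries of these ages were fitted, and whether both genes differ in their response was not tested. Oosp3, a small secreted oocyte protein, had a log2 fold change of -2.66 (edgeR adjusted p = 0.00962), and of -1.45 without day 8 replicate 1 (edgeR adjusted p = 0.0253). Oosp2, of the same family, had one of -4.09, and of -3.48 without that library (edgeR adjusted p = 0.00153 and 0.00332).

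The subcortical maternal complex, a protein lattice under the oocyte membrane that embryos need for their first divisions, was lower in all 7 tested members (median log2 fold change -3.77). Padi6, a lattice protein (chromosome 4, 140727355 to 140742643), measured 1658, 2475 and 2511 CPM at day 8 and 32.5, 18.8 and 32.1 CPM at day 50 (log2 fold change -6.31, SE 0.92, edgeR adjusted p = 4.69e-04). Per length, it was the most abundant germ line list gene at day 8, with 1646 ± 695 TPM, and stood at 22.1 ± 6.32 TPM at day 50. Nlrp5 fell from 537 ± 238 to 11.3 ± 4.23 CPM (log2 fold change -5.57, edgeR adjusted p = 6.56e-04), Tle6 from 392 ± 69.9 to 35.01 ± 4.05 CPM (log2 fold change -3.49, edgeR adjusted p = 2.38e-06) and Khdc3 from 91.9 ± 5.25 to 2.23 ± 0.689 CPM (log2 fold change -5.36, edgeR adjusted p = 9.6e-05), the last with 38.5% of its exon bases overlapped by Gm20509. Zbed3, which other tissues express as well, fell least in this list, from 290.0 ± 48.9 to 119 ± 7.85 CPM (log2 fold change -1.29, edgeR adjusted p = 2.90e-04). The part of somatic cells in its level was not tested.

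Clustered oocyte gene families, the Nlrp, Oog, Obox and Omt2 genes, moved less together, with 9 of 20 tested members lower and 0 higher (median log2 fold change -2.01). Their copies resemble each other, and how the authors' counting split reads between copies makes the values of single genes uncertain. Nlrp14 measured 641, 666 and 691 CPM at day 8 and 20.2, 12.1 and 22.9 CPM at day 50 (log2 fold change -5.18, SE 0.86, edgeR adjusted p = 0.00105) and Nlrp4f fell from 248 ± 34.9 to 5.78 ± 1.16 CPM (log2 fold change -5.42, edgeR adjusted p = 6.78e-05). The day 8 libraries were close to each other for both genes. Obox2 behaved otherwise and measured 104, 10.3 and 17.7 CPM at day 8 and 11.6, 7.36 and 10.6 CPM at day 50 (log2 fold change -2.16, SE 1.01, edgeR adjusted p = 0.113). Day 8 replicate 1 was several times above both other day 8 libraries, and of those replicate 2 lay within the day 50 range and replicate 3 above it. Without replicate 1 the log2 fold change of Obox2 was -0.50 (edgeR adjusted p = 0.734), and the median of the 20 tested members was -1.26, with 9 lower. Of the 20 tested members 18 were highest in replicate 1 among the day 8 libraries, against 41.1% of all tested genes. Oog1 fell, with a log2 fold change of -2.71, and of -1.65 without replicate 1 (edgeR adjusted p = 0.00538 and 0.00785).

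All 13 tested genes of maternal RNA control were lower (median log2 fold change -3.09). With 1 library left out at a time, 9 to 12 were. The level of the filter was reached only at day 8 by 2 of the 13, so that little else could come out for them. All 11 that reached it at both ages were lower. Ybx2, which packages stored mRNA, measured 115, 178 and 166 CPM at day 8 and 3.26, 2.95 and 3.36 CPM at day 50 (log2 fold change -5.58, SE 0.30, edgeR adjusted p = 1.99e-06), and Cpeb1, which controls poly(A) tails, fell from 138 ± 18.9 to 5.49 ± 0.979 CPM (log2 fold change -4.65, edgeR adjusted p = 3.26e-05). Zar1, which keeps maternal mRNA near mitochondria, fell from 79.1 ± 2.29 to 6.23 ± 1.64 CPM (log2 fold change -3.66, edgeR adjusted p = 0.00165). The 13 members spanned a wide range, and Lsm14b and Rbpms2, which somatic cells also express, fell with log2 fold changes of -1.88 and -1.86 (edgeR adjusted p = 4.73e-05 and 6.26e-05). What somatic cells add to these values was not tested.

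Oocyte chromatin genes had 9 of 14 tested members lower (median log2 fold change -1.04), and 6 to 9 with 1 library left out at a time. Kdm1b, a histone demethylase that prepares maternal imprints, measured 254, 352 and 375 CPM at day 8 and 23.5, 22.6 and 24.6 CPM at day 50 (log2 fold change -3.79, SE 0.25, edgeR adjusted p = 2.95e-06). Npm2, a histone chaperone of the egg, fell from 217 ± 85.99 to 4.84 ± 0.774 CPM (log2 fold change -5.49, edgeR adjusted p = 9.14e-06), and Zfp57, which guards imprints, from 102 ± 5.84 to 15.5 ± 0.618 CPM (log2 fold change -2.71, edgeR adjusted p = 9.14e-06). Dnmt1, the maintenance methyltransferase, fell from 368 ± 82.2 to 100.5 ± 13.2 CPM (log2 fold change -1.87, edgeR adjusted p = 8.61e-05) and its cofactor Uhrf1 from 328 ± 67.5 to 55.6 ± 6.09 CPM (log2 fold change -2.56, edgeR adjusted p = 5.49e-06). The de novo methyltransferase Dnmt3a measured 171 ± 29.2 and 159 ± 29.4 CPM (edgeR adjusted p = 0.662), and Trim28, the corepressor that works with Zfp57, measured 258 ± 49.2 and 331 ± 2.84 CPM (edgeR adjusted p = 0.131). Both are expressed widely in somatic cells, whose part in the levels of this list was not tested.

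Genes of oocyte maturation and fertilization were lower in 13 of 14 tested members (median log2 fold change -2.82), and in 10 to 13 with 1 library left out at a time. The level of the filter was reached only at day 8 by 3 of the 14, so that little else could come out for them. It was reached at both ages by 11, of which 10 were lower and 0 higher (median log2 fold change -1.63). Mos, the kinase that holds eggs in metaphase, measured 53.3, 18.7 and 25.6 CPM at day 8 and 2.46, 2.396 and 2.599 CPM at day 50 (log2 fold change -3.70, SE 0.63, edgeR adjusted p = 0.001195), and Wee2, an oocyte kinase that keeps the arrest in prophase, fell from 29.7 ± 3.37 to 2.77 ± 0.706 CPM (log2 fold change -3.42, edgeR adjusted p = 0.00368). Uchl1, an abundant deubiquitinase of oocytes and neurons, fell from 733 ± 104 to 96.5 ± 6.46 CPM (log2 fold change -2.93, edgeR adjusted p = 3.89e-05), with 18.1% of its exon bases overlapped by Uchl1os, and per length it went from 1277 ± 199 TPM to 186 ± 21.9 TPM. Bcl2l10, a survival protein of oocytes, measured 27.7 ± 9.29 and 9.54 ± 1.59 CPM and did not pass (edgeR adjusted p = 0.121). Together, the germ line list genes took 0.977%, 1.55% and 1.51% of all TPM in the day 8 libraries and 0.213%, 0.203% and 0.226% in the day 50 libraries. The day 8 share was lowest in replicate 1 and still above every day 50 library.

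The early growth programme is a set of fetal and neonatal growth genes, several of them imprinted, that many organs switch off after birth. Of 19 tested members 16 were lower and 0 higher (median log2 fold change -3.63, or -3.04 without day 50 replicate 2), and 6 of the 19 reached the level of the filter only at day 8, so that little else could come out for them. H19, a long noncoding RNA, measured 218, 391 and 422 CPM at day 8 and 9.21, 4.85 and 5.86 CPM at day 50 (log2 fold change -5.69, SE 0.47, edgeR adjusted p = 1.44e-05), and its imprinted neighbour Igf2, a growth factor, fell from 107 ± 16.97 to 6.51 ± 2.53 CPM (log2 fold change -4.04, edgeR adjusted p = 5.2e-05), with 64.5% of its exon bases overlapped by Gm49394. Day 8 replicate 1 was the lowest day 8 library for both and still far above day 50. Dlk1, a membrane protein of progenitor cells, fell from 63.4 ± 12.7 to 1.94 ± 0.205 CPM (log2 fold change -5.02, edgeR adjusted p = 2.34e-06) and Peg3, an imprinted zinc-finger gene, from 575 ± 201 to 96.6 ± 5.99 CPM (log2 fold change -2.57, edgeR adjusted p = 5.57e-05). Igf2bp3, which binds Igf2 mRNA, fell from 22.5 ± 3.97 to 0.662 ± 0.273 CPM (log2 fold change -5.06, edgeR adjusted p = 7.2e-06), with 18.7% of its exon bases overlapped by Malsu1, and Hmga1, a chromatin architecture gene, from 139.6 ± 32.6 to 7.33 ± 2.08 CPM (log2 fold change -4.25, edgeR adjusted p = 7.2e-06). The tested members that did not pass were Igf2bp1 (log2 fold change -1.08), Hmga2 (-0.75) and Meg3 (-0.20), with edgeR adjusted p of 0.0561, 0.09602 and 0.721.

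Of the 25 largest falls among named genes whose mean level reached 10 CPM, 16 belonged to the germ line lists. Nos1, neuronal nitric oxide synthase, was among the others and measured 171, 200.3 and 199 CPM at day 8 and 1.32, 1.28 and 2.19 CPM at day 50 (log2 fold change -6.88, SE 0.36, edgeR adjusted p = 1.99e-06). Its day 50 libraries were all near 1 to 2 CPM. Bco1, which cleaves beta-carotene to retinal, fell from 26.6 ± 1.75 to 0.163 ± 0.0935 CPM (log2 fold change -7.29, edgeR adjusted p = 1.58e-06). Crabp1, which binds retinoic acid inside cells, had 3 counts over the day 50 libraries, and its day 8 to day 50 ratio was 422 (exact binomial 95% interval 144 to 2048). Its relative Crabp2 was among the 25 largest rises, from 2.14 ± 1.898 to 65.1 ± 12.3 CPM (log2 fold change 4.98, edgeR adjusted p = 3.29e-05), or by a log2 fold change of 5.93 without day 8 replicate 1. Th, the rate-limiting enzyme of catecholamine synthesis, fell from 29.4 ± 3.18 to 0.229 ± 0.207 CPM (log2 fold change -6.92, edgeR adjusted p = 2.26e-05), by 122-fold, or 208-fold without day 50 replicate 3. Noto, a homeobox gene of the notochord, fell from 48.04 ± 3.46 to 0.415 ± 0.169 CPM (log2 fold change -6.82, edgeR adjusted p = 1.78e-05). These genes were among the 300 that fell by at least 32-fold, of which 45 belonged to the germ line lists and 127 were predicted, clone-named or pseudogenes.

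On the follicle side, the granulosa transcription factors had 7 of 16 tested members higher (43.8%) and 1 lower (6.25%), with a median log2 fold change of 0.50. Over all tested genes these shares were 19.5% and 21.4%. The lower member, Runx1, kept its call when day 8 replicate 1 was left out and lost it when any other of the 6 libraries was. Nr5a2, a nuclear receptor needed for ovulation (chromosome 1, 136842571 to 136960448), measured 117, 52.1 and 50.5 CPM at day 8 and 637, 668 and 695 CPM at day 50 (log2 fold change 3.19, SE 0.34, edgeR adjusted p = 6.4e-05). Day 8 replicate 1 was the highest day 8 library and remained several times below day 50. Foxo1, a target of AKT that is abundant in granulosa cells, measured 114, 89.7 and 61.4 CPM at day 8 and 933, 995 and 1102 CPM at day 50 (log2 fold change 3.52, SE 0.25, edgeR adjusted p = 5.16e-06). The estrogen receptor gene Esr2 rose from 30.8 ± 6.54 to 137 ± 21.4 CPM (log2 fold change 2.16, edgeR adjusted p = 1.84e-05) and Gata6, a zinc-finger factor, from 113 ± 13.8 to 219 ± 4.41 CPM (log2 fold change 0.95, edgeR adjusted p = 5.41e-04). Wt1, a factor of early granulosa cells and surface epithelium, measured 405 ± 99.8 and 206 ± 27.9 CPM (edgeR adjusted p = 0.1704), Gata4 266 ± 79.5 and 320.1 ± 42.6 CPM (edgeR adjusted p = 0.389) and Nr5a1, steroidogenic factor 1, 93.9 ± 34.3 and 147 ± 31.3 CPM (edgeR adjusted p = 0.135).

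Genes of early follicle granulosa cells were higher in 7 of 20 tested members (35.0%) and lower in 3 (15.0%). Over all tested genes these shares were 19.5% and 21.4%. The median log2 fold change was 0.18, or -0.07 without day 8 replicate 1. The 3 that fell were Cdkn1b, a cyclin-dependent kinase inhibitor (log2 fold change -1.12, edgeR adjusted p = 2.04e-04), and Rspo1 and Wnt4, which specify granulosa cells in the fetus. Rspo1 fell from 93.4 ± 24.2 to 24.3 ± 5.44 CPM (log2 fold change -1.95, edgeR adjusted p = 0.00257) and Wnt4 from 66.1 ± 15.1 to 30.8 ± 5.77 CPM (log2 fold change -1.11, edgeR adjusted p = 0.0133), with adjusted p of 0.0503 for Wnt4 without day 8 replicate 2 and 0.0712 without day 50 replicate 3. Among those that rose, Hey2, a Notch target, went from 17.2 ± 1.56 to 50.03 ± 3.19 CPM (log2 fold change 1.54, edgeR adjusted p = 4.06e-05). Lgr5, a receptor of R-spondins that marks early granulosa cells, measured 52.4, 135 and 108 CPM at day 8 and 51.8, 64.04 and 54.3 CPM at day 50 (log2 fold change -0.80, SE 0.47, edgeR adjusted p = 0.202). Its day 8 replicate 1 lay within the day 50 range and the other 2 day 8 libraries above it.

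The follicle-stimulating hormone response and estradiol synthesis list had the highest median log2 fold change of the 10 follicle lists, 2.94. Of 17 tested members 12 were higher and 1 lower, and without day 8 replicate 1 the median was 3.80, with 12 higher and 2 lower. Inhba, the activin beta A subunit (chromosome 13, 16011851 to 16027211), measured 144, 63.1 and 11.9 CPM at day 8 and 2336, 2836 and 2986 CPM at day 50 (log2 fold change 5.22, SE 0.74, edgeR adjusted p = 3.92e-04), and its log2 fold change was 6.18 without day 8 replicate 1. Inhbb, the beta B subunit, measured 234, 112 and 117 CPM at day 8 and 1848, 1970.2 and 2028 CPM at day 50 (log2 fold change 3.66, SE 0.32, edgeR adjusted p = 1.61e-05). Their day 8 levels were scattered and their day 50 levels close together. Fst, follistatin, which binds and blocks activins, rose from 74.8 ± 17.9 to 403 ± 16.4 CPM (log2 fold change 2.43, edgeR adjusted p = 3.42e-05).

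Fshr, the receptor of follicle-stimulating hormone, measured 8.08, 0.931 and 1.52 CPM at day 8 and 25.5, 28.4 and 20.4 CPM at day 50 (log2 fold change 2.85, SE 0.69, edgeR adjusted p = 0.00816). Cyp19a1, aromatase, measured 5.78, 1.11 and 1.24 CPM at day 8 and 20.2, 21.7 and 20.1 CPM at day 50 (log2 fold change 2.97, SE 0.56, edgeR adjusted p = 0.00205), and Lhcgr, the luteinizing hormone receptor, measured 10.7, 1.16 and 1.97 CPM at day 8 and 42.3, 21.5 and 39.8 CPM at day 50 (log2 fold change 2.94, SE 0.71, edgeR adjusted p = 0.00814). Day 8 replicate 1 carried several times more of all 3 than replicates 2 and 3, and no day 8 library reached day 50. Without that library the log2 fold changes were 4.33, 4.13 and 4.45 (edgeR adjusted p = 5.27e-05, 1.11e-05 and 1.95e-04). With no filter on low counts the adjusted p was 0.0532 for Fshr and 0.0595 for Lhcgr. Among genes that respond to these hormones, Prkar2b, a regulatory subunit of protein kinase A, rose from 144 ± 73.4 to 1833 ± 225 CPM (log2 fold change 3.67, edgeR adjusted p = 2.13e-05), Grb14, an adaptor that dampens insulin receptor signals, from 74.1 ± 35.04 to 1653 ± 214 CPM (log2 fold change 4.48, edgeR adjusted p = 8.21e-06) and Greb1, an estrogen-induced gene, from 56.2 ± 33.5 to 497 ± 34.1 CPM (log2 fold change 3.15, edgeR adjusted p = 1.58e-04). The member that fell was Igf1r, the receptor of insulin-like growth factor 1, from 138 ± 22.3 to 44.8 ± 12.7 CPM (log2 fold change -1.62, edgeR adjusted p = 3.23e-04). Its ligand gene Igf1 measured 147 ± 5.81 and 218 ± 16.96 CPM (edgeR adjusted p = 0.06301). Lhcgr, and Cyp17a1 below, were named after their values were seen.

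**Figure D5:**
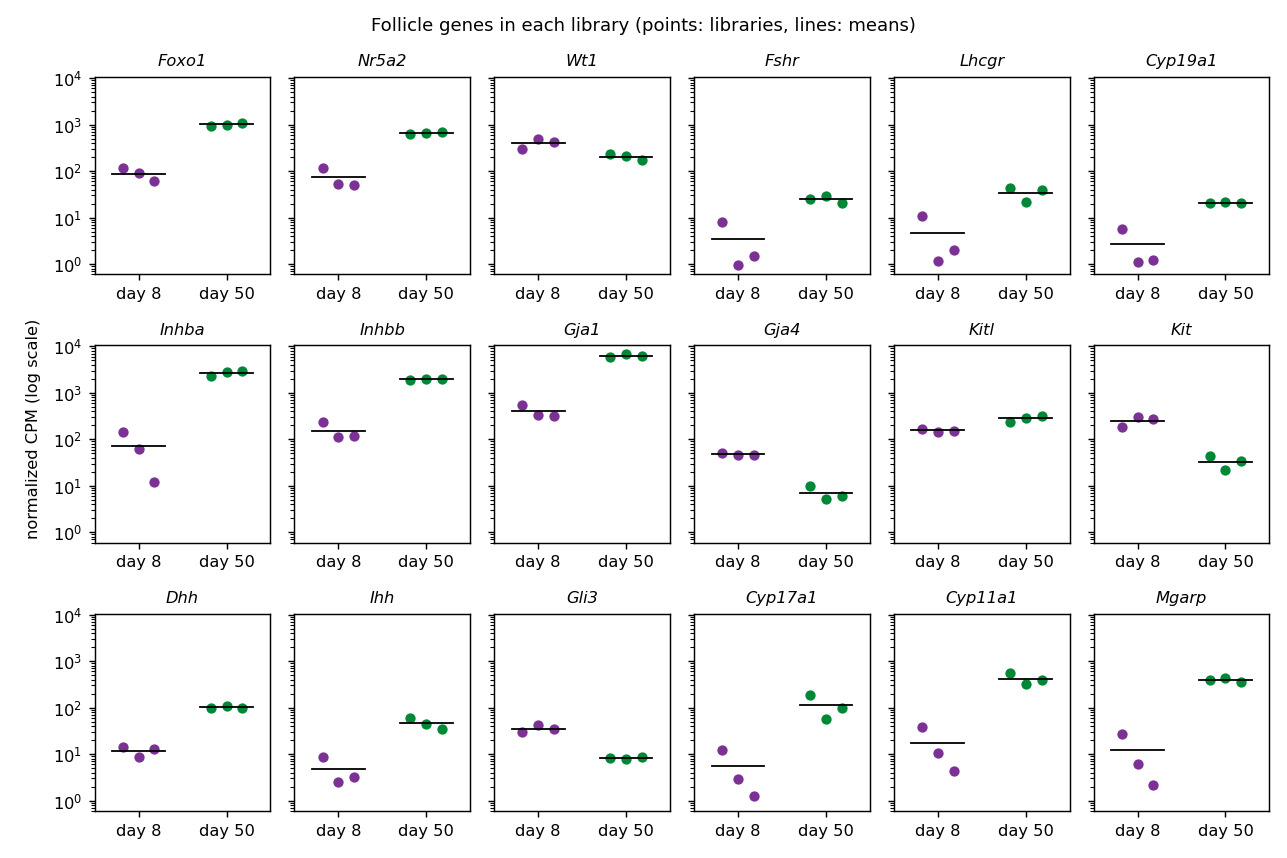
Normalized CPM of 18 follicle genes in each day 8 and day 50 library on a log axis; points are libraries and lines are means. Foxo1, Inhbb, Gja1 and Dhh rose with no overlap between the ages, Kit and Gja4 fell, and day 8 replicate 1 is the highest day 8 library for Fshr, Lhcgr, Cyp19a1 and Cyp17a1.

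Oocytes and granulosa cells signal through a ligand and its receptor, which moved in opposite directions, as did the connexins of 2 different follicle junctions. Kitl, the granulosa ligand, measured 170.5, 145 and 153 CPM at day 8 and 237, 291 and 325 CPM at day 50 (log2 fold change 0.86, SE 0.21, edgeR adjusted p = 0.00734), while its receptor Kit, on oocytes and also on theca and mast cells, measured 182, 303 and 276 CPM at day 8 and 43.2, 22.4 and 33.9 CPM at day 50 (log2 fold change -2.94, SE 0.44, edgeR adjusted p = 5.44e-04). Gja1, the gap junction protein between granulosa cells, measured 549.9, 333 and 314 CPM at day 8 and 5771, 6738 and 6070.3 CPM at day 50 (log2 fold change 3.96, SE 0.30, edgeR adjusted p = 7.16e-06). Gja4, the connexin of the junction between oocyte and granulosa cells, measured 50.1, 45.98 and 46.1 CPM at day 8 and 10.1, 5.07 and 6.06 CPM at day 50 (log2 fold change -2.74, SE 0.27, edgeR adjusted p = 3.87e-05). Kitl and Gja1 were higher in every day 50 library than in any day 8 library, and Kit and Gja4 were lower. Kit also belongs to the mast cell and granulocyte markers, of which 7 of 7 tested were lower. Of these 6 reached the level of the filter only at day 8, so that little else could come out for them. Their median log2 fold change was -4.96, or -4.34 without day 8 replicate 1, with summed levels of 244 to 379 CPM at day 8 and 23.8 to 45.8 CPM at day 50, most of it Kit itself. Mcpt4, a mast cell protease, measured 10.3, 2.68 and 6.81 CPM at day 8 and 0.114, 0.223 and 0.153 CPM at day 50 (log2 fold change -5.27, SE 0.65, edgeR adjusted p = 1.41e-04), and the neutrophil gene S100a8 measured 4.301, 11.8 and 35.9 CPM at day 8 and 0.172, 0.167 and 0.204 CPM at day 50 (log2 fold change -6.53, SE 0.84, edgeR adjusted p = 2.28e-04), or a log2 fold change of -5.47 without day 8 replicate 3. Mcpt4 was highest in day 8 replicate 1 and S100a8 in replicate 3. What part of the fall of Kit lies in these cells was not tested. Of the receptors for Gdf9 and Bmp15, Bmpr2 rose from 164 ± 32.9 to 631 ± 148 CPM (log2 fold change 1.94, edgeR adjusted p = 8.31e-05) and Bmpr1b had a log2 fold change of 2.43 (edgeR adjusted p = 4.83e-06). Bmpr1a measured 167 ± 13.2 and 181 ± 9.15 CPM (edgeR adjusted p = 0.5402) and Tgfbr1 95.8 ± 4.86 and 120.0 ± 9.85 CPM (edgeR adjusted p = 0.0539). Nppc, the peptide that keeps the oocyte in meiotic arrest, rose from 6.84 ± 2.43 to 29.1 ± 2.300 CPM (log2 fold change 2.09, edgeR adjusted p = 2.48e-04). Over the whole list 8 of 15 tested members were higher and 1 lower (median log2 fold change 0.52), and without day 8 replicate 1, 7 were higher and 2 lower.

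Hedgehog ligands of granulosa cells recruit theca cells from the stroma. Dhh measured 14.01, 8.73 and 12.7 CPM at day 8 and 99.6, 110.0 and 99.7 CPM at day 50 (log2 fold change 3.13, SE 0.20, edgeR adjusted p = 2.71e-06), with 25.2% of its exon bases overlapped by Gm49442, and Ihh measured 8.602, 2.503 and 3.26 CPM at day 8 and 58.5, 44.5 and 35.01 CPM at day 50 (log2 fold change 3.29, SE 0.40, edgeR adjusted p = 1.64e-04), or a log2 fold change of 3.99 without day 8 replicate 1. Both ligands were several times higher in every day 50 library. Of 11 tested genes on the receiving side, 1 was higher and 5 lower (median log2 fold change -0.70), and without day 8 replicate 1, 2 were higher and 5 lower. Over all tested genes, 19.5% were higher and 21.4% lower. Gli3, a transcription factor of the pathway, measured 29.7, 41.2 and 35.2 CPM at day 8 and 8.12, 7.69 and 8.61 CPM at day 50 (log2 fold change -2.12, SE 0.21, edgeR adjusted p = 3.34e-05). The coreceptor Cdon fell from 110.1 ± 26.5 to 53.2 ± 4.29 CPM (log2 fold change -1.05, edgeR adjusted p = 0.00104) and Gli2, another transcription factor of the pathway, from 28.9 ± 4.100 to 12.7 ± 6.45 CPM (log2 fold change -1.18, edgeR adjusted p = 0.01004). The coreceptor Boc fell from 51.8 ± 7.12 to 35.3 ± 3.93 CPM (log2 fold change -0.55, edgeR adjusted p = 0.0135), and its call ended without day 8 replicate 2 or 3 or day 50 replicate 2 (edgeR adjusted p = 0.0577, 0.0579 and 0.0872). Sufu, a brake on Gli proteins, was the member that rose, from 46.7 ± 8.58 to 71.2 ± 8.35 CPM (log2 fold change 0.61, edgeR adjusted p = 0.0117). The pathway targets Gli1 and Ptch1, which did not pass, measured 25.6 ± 12.6 and 13.3 ± 4.73 CPM (edgeR adjusted p = 0.0816) and 96.1 ± 37.6 and 76.9 ± 25.8 CPM (edgeR adjusted p = 0.3996). Stromal fibroblast markers fell beside them, with 8 of 10 tested members lower and summed levels of 3670 to 4320 CPM at day 8 and 1220 to 2070 CPM at day 50. Among these Col3a1, a fibrillar collagen, went from 1401 ± 93.4 to 504 ± 79.4 CPM (log2 fold change -1.48, edgeR adjusted p = 4.34e-04). The part of the stroma in the fall of these pathway genes was not tested.

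Theca and steroid synthesis genes were higher in 14 of 17 tested members and lower in 0 (median log2 fold change 1.90). Cyp17a1, the theca enzyme that makes androgen, measured 12.5, 2.85 and 1.24 CPM at day 8 and 185, 56.8 and 96.2 CPM at day 50 (log2 fold change 4.39, SE 0.76, edgeR adjusted p = 0.001297). Cyp11a1, which makes pregnenolone from cholesterol, measured 37.7, 10.7 and 4.28 CPM at day 8 and 549, 324 and 387 CPM at day 50 (log2 fold change 4.60, SE 0.69, edgeR adjusted p = 5.78e-04), and Hsd3b1, which makes progesterone and androstenedione, measured 413, 119 and 138 CPM at day 8 and 2888, 2835 and 2602 CPM at day 50 (log2 fold change 3.64, SE 0.47, edgeR adjusted p = 2.22e-04). All 3 were highest at day 8 in replicate 1, and the day 50 libraries were above it. Without that library the log2 fold changes were 5.79, 5.82 and 4.43. Mgarp, a mitochondrial protein of steroid-making cells, rose from 11.9 ± 13.7 to 392 ± 41.7 CPM (log2 fold change 5.06, edgeR adjusted p = 4.99e-04), or by a log2 fold change of 6.57 without replicate 1. Scarb1, which brings cholesterol of lipoproteins into cells, rose from 106 ± 4.700 to 329.6 ± 31.5 CPM (log2 fold change 1.64, edgeR adjusted p = 4.38e-05). The tested members that did not pass were Hsd3b6 (log2 fold change 0.61), Hsd11b1 (-0.56) and Nr2f2, a factor of stroma and theca (0.01), with edgeR adjusted p of 0.208, 0.722 and 0.988. The adrenal enzyme genes Cyp11b2 and Cyp21a1 had 0 counts in all 6 libraries. Smooth muscle markers, which the outer theca also expresses, were higher in 3 of 10 tested members, where 19.5% of all tested genes were, and lower in 0. Their summed levels were 477 to 1090 CPM at day 8 and 1790 to 2510 CPM at day 50, and their part in these rises was not tested.

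The median luteal and ovulation genes moved little, while the summed levels of both lists rose. Luteal genes summed to 631 to 761 CPM at day 8 and 1540 to 1710 CPM at day 50. Ovulation genes summed to 460 to 759 CPM at day 8 and 949 to 1140 CPM at day 50. Over all tested genes, 19.5% were higher and 21.4% lower. Of 11 tested luteal genes 4 were higher and 1 lower, Akr1c18 (median log2 fold change 0.37). Stc1, a secreted glycoprotein, measured 28.6, 29.4 and 15.5 CPM at day 8 and 627, 788 and 777 CPM at day 50 (log2 fold change 4.90, SE 0.39, edgeR adjusted p = 1.16e-05). Akr1c18, which inactivates progesterone, fell from 5.900 ± 3.81 to 1.58 ± 0.559 CPM (log2 fold change -1.90, edgeR adjusted p = 0.0188), a call that ended without day 8 replicate 3 (0.0810), day 50 replicate 1 (0.0597) or day 50 replicate 3 (0.0854). Of 12 tested genes of the ovulation response, which follows the surge of luteinizing hormone, 3 were higher and 1 lower (median log2 fold change 0.12). Ptgs2, the prostaglandin synthase of the ovulating follicle, measured 0.148, 0.116 and 0.0563 CPM at day 8 and 0.4003, 0.3901 and 0.408 CPM at day 50 (log2 fold change 1.87, SE 0.72, edgeR adjusted p = 0.0619), and Tnfaip6, of the cumulus matrix, measured 1.103 ± 0.836 and 2.59 ± 0.607 CPM (edgeR adjusted p = 0.09602). Both stayed below 4 CPM in every library. Without day 8 replicate 1 Tnfaip6 passed the test (log2 fold change 1.97, edgeR adjusted p = 0.0174). Ereg, an epidermal growth factor ligand, fell from 2.02 ± 0.467 to 0.308 ± 0.124 CPM (log2 fold change -2.69, edgeR adjusted p = 0.00171).

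Genes tied to atresia, the loss of follicles, were higher in 6 of 12 tested members and lower in 1 (median log2 fold change 0.74). Over all tested genes, 19.5% were higher and 21.4% lower. Clu, clusterin, a secreted chaperone of dying and stressed tissue, measured 334, 339 and 258 CPM at day 8 and 4831, 5005 and 4336 CPM at day 50 (log2 fold change 3.93, SE 0.27, edgeR adjusted p = 4e-06). Per length, it was the most abundant follicle list gene at day 50, with 5763 ± 185 TPM. The pro-death genes Bcl2l11 and Bbc3 rose from 18.6 ± 1.93 to 34.6 ± 1.31 CPM (log2 fold change 0.90, edgeR adjusted p = 4.67e-04) and from 4.56 ± 0.943 to 10.6 ± 1.16 CPM (log2 fold change 1.21, edgeR adjusted p = 0.00333), while Bmf and Fas measured 21.7 ± 1.43 and 21.2 ± 1.06 CPM and 2.03 ± 1.06 and 2.500 ± 0.269 CPM (edgeR adjusted p = 0.9000 and 0.618). Macrophage markers, of the cells that clear dying follicles, were higher in 6 of 9 tested members and lower in 0, and their summed level was 64.6 to 133 CPM at day 8 and 342 to 446 CPM at day 50. C1qc, a complement subunit they secrete, measured 10.2, 6.75 and 6.47 CPM at day 8 and 41.7, 37.5 and 37.2 CPM at day 50 (log2 fold change 2.32, SE 0.35, edgeR adjusted p = 5.82e-04), and their part in the atresia list was not tested. The follicle list genes together took 0.717%, 1.27% and 1.09% of all TPM in the day 8 libraries and 3.76%, 3.96% and 3.83% in the day 50 libraries, with no overlap.

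Of 20 tested basement membrane genes 4 were higher and 5 lower, shares close to the 19.5% and 21.4% of all tested genes (median log2 fold change 0.21, or -0.04 without day 8 replicate 1). Single subunits differed in direction. The linker Nid1 measured 283, 545 and 389.5 CPM at day 8 and 110.5, 78.8 and 167 CPM at day 50 (log2 fold change -1.77, SE 0.31, edgeR adjusted p = 0.00125), and its paralog Nid2 measured 86.8, 133 and 108 CPM at day 8 and 289, 371 and 368 CPM at day 50 (log2 fold change 1.65, SE 0.23, edgeR adjusted p = 3.34e-04). Nid1 was higher in every day 8 library and Nid2 in every day 50 library. Lama1 rose from 180.1 ± 34.8 to 432 ± 35.1 CPM (log2 fold change 1.26, edgeR adjusted p = 3.46e-04) and Lama2 fell from 124 ± 22.5 to 55.1 ± 21.3 CPM (log2 fold change -1.17, edgeR adjusted p = 0.00703), both laminin alpha chains. Col18a1, a heparan sulfate collagen, fell from 291 ± 112 to 47.6 ± 10.8 CPM (log2 fold change -2.61, edgeR adjusted p = 1.05e-04).

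The mitosis list had 0 of 17 tested members higher and 5 lower (median log2 fold change -0.34). Of all tested genes, 19.5% were higher and 21.4% lower, so the lower count is near that share. Birc5, a chromosomal passenger protein, measured 118, 106 and 112 CPM at day 8 and 26.7, 27.5 and 27.4 CPM at day 50 (log2 fold change -2.04, SE 0.12, edgeR adjusted p = 2.04e-06). Its fall was larger than those of Cdk1 (-0.71), Aurka (-0.66), Bub1 (-0.60) and Cenpf (-1.16) on the log2 scale, and the differences between these genes were not tested. The call of Bub1 ended without day 8 replicate 3 or day 50 replicate 1 or 3 (edgeR adjusted p = 0.0541, 0.0852 and 0.0622). Top2a measured 148 ± 10.2 and 190.1 ± 23.1 CPM (edgeR adjusted p = 0.0504), and it was called higher without day 8 replicate 2 (0.0333) or day 50 replicate 1 (0.038).

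None of the 25 largest rises belonged to the germ line lists. Thbs4, a matrix thrombospondin, measured 54.1, 25.7 and 9.56 CPM at day 8 and 1100.0, 974 and 1128 CPM at day 50 (log2 fold change 5.17, SE 0.55, edgeR adjusted p = 6.54e-05), or a log2 fold change of 5.92 without day 8 replicate 1. Prss23, a secreted serine protease, rose from 21.5 ± 8.39 to 837 ± 63.3 CPM (log2 fold change 5.29, edgeR adjusted p = 4.27e-06), with 22.9% of its exon bases overlapped by Prss23os. Agt, angiotensinogen, rose from 12.2 ± 7.76 to 325 ± 19.97 CPM (log2 fold change 4.75, edgeR adjusted p = 1.47e-05), or by a log2 fold change of 5.39 without day 8 replicate 1. Lgr6, a receptor of R-spondins and a relative of Lgr5, measured 16.1, 10.4 and 7.88 CPM at day 8 and 242, 309.7 and 294 CPM at day 50 (log2 fold change 4.63, SE 0.26, edgeR adjusted p = 1.99e-06). All 3 day 50 libraries were above 200 CPM and all day 8 libraries below 20. Asb4, a ubiquitin ligase adaptor, rose from 1.99 ± 0.8497 to 81.2 ± 7.76 CPM (log2 fold change 5.36, edgeR adjusted p = 3.08e-06) and Tuba8, a tubulin, from 1.44 ± 0.197 to 63.7 ± 7.98 CPM (log2 fold change 5.47, edgeR adjusted p = 1.43e-06).

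Markers of other blood-borne and supporting cells were read beside these groups, and beside the 19.5% of all tested genes that were higher and the 21.4% that were lower. Endothelial markers were higher in 3 of 10 tested members and lower in 0, with summed levels of 274 to 322 CPM at day 8 and 320 to 387 CPM at day 50. Without day 8 replicate 1 they were higher in 5 of 10. Surface epithelium markers were higher in 0 of 10 and lower in 1, Muc16 (log2 fold change -2.06, edgeR adjusted p = 0.00361), and summed to 1500 to 2550 CPM at day 8 and 1410 to 2030 CPM at day 50. Erythroid markers were lower in 4 of 6, with sums of 982 to 2240 CPM at day 8 and 194 to 386 CPM at day 50. Without day 8 replicate 3, or without any of the day 50 libraries, 2 of 6 were lower. Lymphocyte markers had 4 tested members with no call, and their sums stayed between 3.96 and 8.18 CPM in all 6 libraries. Schwann cell and neuron markers, which include Th and Uchl1, were lower in 3 of 8 and higher in 1, or higher in 2 without day 8 replicate 1. They summed to 788 to 993 CPM at day 8, most of it Uchl1, and 192 to 207 CPM at day 50. The part of these cells in the results above was not tested.

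Pik3ca, the gene of the genotype, measured 58.1, 92.8 and 76.9 CPM at day 8 and 114, 126 and 135 CPM at day 50 (log2 fold change 0.72, SE 0.17, edgeR adjusted p = 0.00754), with no overlap between the ages. Whether reads of the knock-in are counted in it is not given.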

How the data were processed

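Ovaries were profiled by RNA-seq from total RNA with the NuGEN Universal Plus mRNA-Seq kit, per the labels' protocols. The authors deposited 1 table per library of RSEM expected counts and TPM (the length-scaled share of transcripts, by RSEM from effective lengths), per the file headers. The build is GRCm38 (mm10), per the submitters' processing notes, and neither the aligner nor the strand setting is given in the sources used. RSEM divides reads shared by similar genes, and reads of overlapping genes cannot be told apart without the strand setting. Exon overlaps came from the GENCODE M21 annotation in the reference.

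Expected counts were rounded to whole numbers. The FPKM columns, 9 in all, were not used. edgeR 4.0.16 (R 4.3.3) fitted all 9 libraries with a term per age, TMM factors, filterByExpr and robust quasi-likelihood dispersions, and the contrast was day 50 minus day 8. P-values were adjusted by Benjamini-Hochberg over 17747 genes at 0.05. Levels are TMM-normalized CPM, a fold against 1 to 3 counts is a ratio of counts with an exact binomial 95% interval, and intervals cover counting error only. At 14116872 to 18868772 counts per library, 3 counts over an age correspond to 0.0619 CPM at day 8 and 0.0545 CPM at day 50. No pair of libraries held identical values.

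The comparison, the gene lists and the named genes were chosen with earlier results of these data known. Up to 8 called members per direction and 4 uncalled members of each list could be named, in order of p, with partners of a named gene, the 25 largest changes each way at a mean of at least 10 CPM with no overlap, and Pik3ca. Predicted, clone-named and pseudogenes were counted and not named. List symbols not matched in the tables (Gcna, Meiosin, Iho1, Brme1 and Meilb2 among them) were not analysed here, and a few list members are not reported here. Alternatives were other scalings, filters and dispersion sets, DESeq2 1.42.0, a replicate block, a length correction, a stricter threshold and each library left out.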

Additional observations from a re-analysis of the deposited data

How the results depend on the processing

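At an adjusted p under 0.01, 4597 genes were called, 2208 higher and 2389 lower. Leaving out 1 library at a time gave 5524 to 7096 calls, 2882 to 3429 higher and 2642 to 3670 lower, and 115 to 124 germ line genes lower, 61 to 67 follicle genes higher and 15 to 21 follicle genes lower. Across other scalings, filters, dispersion sets, DESeq2 and the length correction, 6536 to 7884 genes were called, and all called genes shared with the reported fit kept their direction. The 3 other scalings moved the median of all genes from -0.04 to between -0.09 and -0.07 (log2) and the share of higher among called genes from 47.7% to between 43.4% and 44.2%. With the replicate block 6735 genes were called, 6586 of them shared with the fit without it. Libraries of the same number did not deviate together (correlations of 0.01, -0.04 and -0.03). These values show no pairing by number, and 3 libraries per age are too few to exclude it. Of 132 named genes called, 123 were called under every alternative, 9 were not under at least 1 (Fshr, Lhcgr, Wnt4, Boc, Bub1, Akr1c18 and Runx1, given above, and Gli2 and Sufu at the stricter threshold), and 0 changed sign. Of 33 named genes not called, 11 were called under at least 1 alternative, 7 of them in the fit of only the 6 libraries (Bcl2l10, Ythdc2, Wt1, Igf1, Hmga2, Igf2bp1 and Bmp15). The cause of these changes was not tested. With 3 libraries per age, of which day 8 replicate 1 stands apart, day 8 levels of hormone-response, theca and clustered oocyte genes carry the spread that this library adds. Genes at or below 3 counts over an age have no stable fold.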

Other observations

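Some of the 25 largest rises are genes best known from tissues other than the ovary. Hrc, a calcium-binding protein of the sarcoplasmic reticulum in muscle, rose from 0.793 ± 0.366 to 26.01 ± 2.74 CPM (log2 fold change 5.05, edgeR adjusted p = 2.63e-06), and Klhl30, a kelch protein, from 1.27 ± 0.672 to 37.5 ± 2.701 CPM (log2 fold change 4.91, edgeR adjusted p = 6.86e-06). Grin2c, a glutamate receptor subunit of neurons, measured 2.52, 0.757 and 0.338 CPM at day 8 and 45.9, 38.4 and 35.9 CPM at day 50 (log2 fold change 5.12, SE 0.50, edgeR adjusted p = 4.19e-05), or a log2 fold change of 6.18 without day 8 replicate 1. Angptl7, a secreted angiopoietin-like protein, rose from 5.896 ± 4.66 to 211 ± 41.1 CPM (log2 fold change 5.19, edgeR adjusted p = 3.56e-04; log2 fold change 6.04 without day 8 replicate 1), and Car14, a membrane carbonic anhydrase, from 4.63 ± 2.96 to 115 ± 25.5 CPM (log2 fold change 4.66, edgeR adjusted p = 2.2e-05), with 17.5% of its exon bases overlapped by Aph1a. Which cells express these 5 genes was not tested.

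Adipocyte markers were higher in 3 of 5 tested members and lower in 0. Their summed levels were 3.90 to 18.4 CPM at day 8 and 16.6 to 94.6 CPM at day 50. Leaving out day 50 replicate 1 left 1 of the 5 higher, as did leaving out day 8 replicate 2 or day 8 replicate 3. Sertoli cell markers, from the supporting cell of the testis, were higher in 4 of 9 and lower in 2, and their sums were 91.6 to 106 CPM at day 8 and 102 to 104 CPM at day 50. Their higher count became 2 when day 8 replicate 2, day 8 replicate 3, day 50 replicate 1 or day 50 replicate 2 was left out. The lower count became 1 on leaving out any library except day 8 replicate 2. Gdnf, a neurotrophic factor of supporting cells, rose from 7.48 ± 2.18 to 25.9 ± 7.93 CPM (log2 fold change 1.80, edgeR adjusted p = 3.55e-04), while Ptgds, a prostaglandin D synthase, fell from 20.5 ± 3.56 to 5.62 ± 2.43 CPM (log2 fold change -1.87, edgeR adjusted p = 0.00239). Oviduct epithelium markers were lower in 2 of 10, Pax8 (log2 fold change -3.68, edgeR adjusted p = 2.41e-04) and Wfdc2 (log2 fold change -1.88, edgeR adjusted p = 0.00719), and higher in 0, a share near the 21.4% of all tested genes. Without day 50 replicate 1, 4 were lower and the median log2 fold change went from 0.30 to -1.63. Their summed level was 262 to 448 CPM at day 8 and 478 to 763 CPM at day 50.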
